A study of Mus musculus with 8 samples.

Results

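The small heat shock proteins of muscle were examined in cultured mouse myotubes, together with Bag3, the co-chaperone that works with them. The members were the 7 genes Hspb1, Hspb2, Hspb3, Hspb7, Hspb8, Cryab and Bag3, taken by name. All probe sets annotated to them were used: 14 probe sets, out of 22690 on array type A and 22575 on array type B, or 7 genes of the 18193 with a single gene symbol. All 14 lie on type A and 0 on type B. Each of the 4 RNAs was hybridised to 1 array of each type. The labels give wildtype RNA, grown as a myotube culture, and truncated Egr3 RNA, grown likewise, where Egr3 is a zinc-finger transcription factor needed for muscle spindles. They give RNA275 only an acclimatization treatment and RNA276 no treatment, so these RNAs belong to no group and their values are given singly. The labels do not say how the truncated Egr3 was brought in, from which animals the cells came, or whether a label stands for more than 1 culture. All 8 myotube markers (among them Myog, Ckm, Myh3 and Mymk) were above the signal floor in the 4 RNAs.

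Small heat shock proteins bind unfolding proteins without using ATP and hand them to the Hsp70 machinery. They share a conserved alpha-crystallin domain and assemble into larger complexes. In muscle they guard the cytoskeleton and the sarcomere: Cryab binds desmin and titin, Hspb1 binds actin filaments, Hspb7 binds filamin C, and Hspb2 and Hspb3 form complexes with each other. Hspb8 pairs with Bag3, which links it to Hsp70 and to the removal of damaged filamin by autophagy. Heat shock factors act on several of these genes through repeats of the letters GAA in opposing orientation.

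The start regions of the members are shown because several of these genes are known for such repeats. RefSeq windows on the GRCm38.p6 build, from 250 bases before to 50 bases after the annotated start, were held for 5 of the 7 members; Hspb2 and Cryab were not matched. The letters GAANNTTC read the same on both strands and were found in 4 of the 5 windows. Hspb1 has them in 2 places, starting 117 and 97 bases before the start. Its 250 bases before the start (chr5:135887669-135887918, + strand) are printed with both matches in capitals.
Hspb1: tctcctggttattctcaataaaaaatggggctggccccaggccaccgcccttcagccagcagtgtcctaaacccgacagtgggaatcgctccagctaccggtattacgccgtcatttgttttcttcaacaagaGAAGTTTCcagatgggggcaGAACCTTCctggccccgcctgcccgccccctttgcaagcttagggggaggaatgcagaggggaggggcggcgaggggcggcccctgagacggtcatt

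The other matches are shown in 30 bases each, with the match in capitals. The Hspb3 match starts 224 bases before the start (chr13:113663882-113663911, - strand). The Hspb8 match begins 2 bases after the start (chr5:116422844-116422873, - strand), and the Bag3 match 42 bases after it (chr7:128523603-128523632, + strand).
Hspb3: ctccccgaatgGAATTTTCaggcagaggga
Hspb8: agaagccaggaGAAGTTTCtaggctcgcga
Bag3: ccaagttctctggatgggaccaGAAGTTTC

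The Hspb1, Hspb8 and Bag3 windows each hold the letters GAAGTTTC, whose share over all windows is not given here. Of 32851 RefSeq windows of 300 bases, 7.86% hold GAANNTTC and 8.52% hold the opposing form TTCNNGAA, which none of the 5 member windows holds. A match is a run of letters and not a measured binding site.

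None of the 7 members was 2-fold apart between the wildtype and truncated Egr3 RNAs. Their log2 differences, wildtype minus truncated Egr3, ran from -0.23 for Hspb7 to 0.17 for Hspb1, each gene taken by its brightest probe set, and their median was 0.02 (-0.04 once the arrays were given equal medians). Of 10307 measured genes, 1.13% (116) passed 2-fold with the higher signal in wildtype and 0.534% (55) with the higher signal in truncated Egr3. Given equal array medians these were 93 and 87 genes. The median of the 7236 measured genes on type A was 0.01. Each label stands on a single RNA, so these differences have no replicate check and were not tested. In RNA of whole cultures, fewer cells of a type and less RNA per cell cannot be told apart. The spread that could be measured is technical: over 100 probe sets carried by both array types, the SD of a single log2 difference between these RNAs was 0.179. This SD leaves out a mean offset of 0.139 in log2 between the array types. These probe sets had a median signal of 344 on type A, and dimmer ones may vary more.

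**Figure D1:**
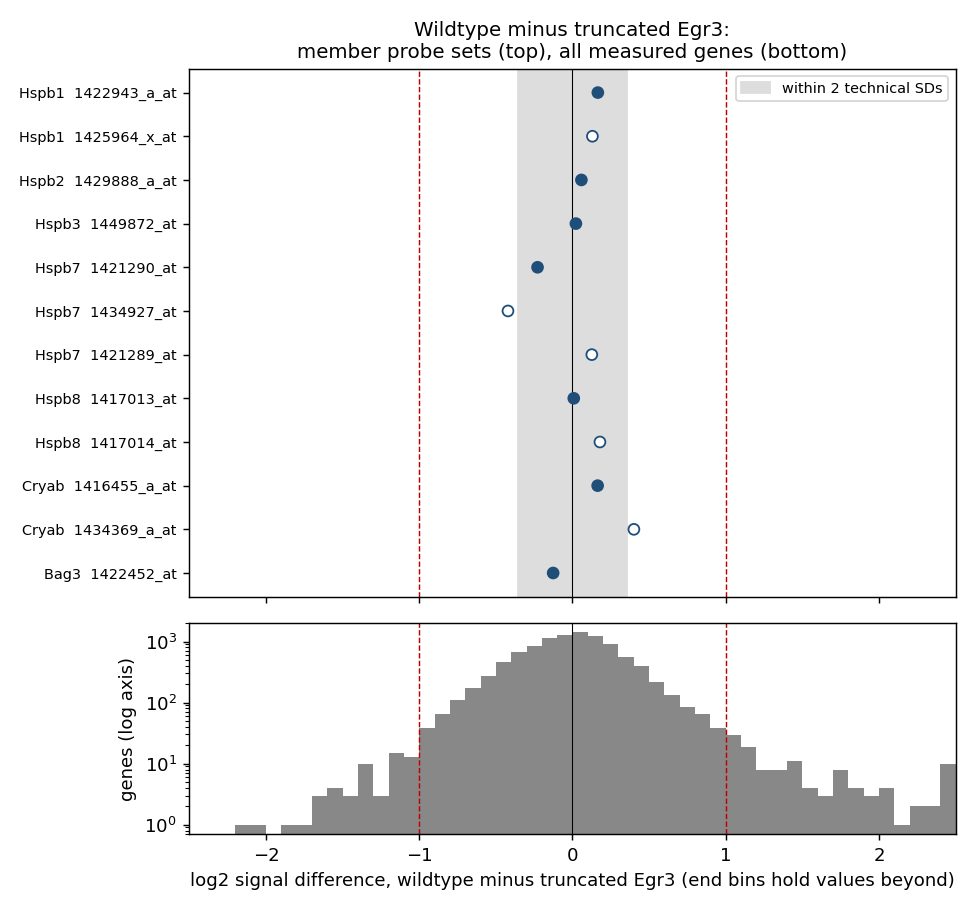
Log2 signal difference, wildtype minus truncated Egr3, for the 12 member probe sets above the floor in either RNA (top; filled points are the brightest probe set of a gene, open points the others) and for all 10307 measured genes (bottom, log count axis). The grey band is 2 technical SDs (0.358) and the dashed lines are 2-fold; 2 member probe sets lie outside the band and 0 outside the dashed lines.

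Of the 14 probe sets, 12 were above the signal floor of 67.6 in all 4 RNAs. Among these, 9 differences were above 0 and 3 below, and 2 exceeded 2 technical SDs. Those were a dimmer Cryab probe set, at 0.40 (900 in wildtype against 682), and a dimmer Hspb7 probe set, at -0.42 (305 against 408). In both genes the brightest probe set gave a smaller difference. The 8 myotube markers had a median log2 difference of 0.18, with 7 of 8 above 0 (6 with quantile normalization or equal medians), and a summed signal from 16895 in truncated Egr3 to 19926 in RNA276; their part in the members' values was not tested.

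Cryab, also called alpha-B crystallin, read 1871 in RNA276, 1361 in RNA275, 1036 in wildtype and 924 in truncated Egr3. RNA276 was separated from RNA275, and RNA275 from wildtype, by more than 2 technical SDs, while the wildtype and truncated Egr3 values were not. The next probe set read 1327, 1304, 900 and 682 in the same order of RNAs. Here RNA276 and RNA275 were close together and lay above the wildtype RNA, which lay above truncated Egr3. The remaining Cryab probe set read 21.2, 21.8, 24.6 and 29.0, below the floor everywhere.

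Hspb1, the actin-associated member, followed the same order. It read 3007 in RNA276, 2405 in RNA275, 1971 in wildtype and 1757 in truncated Egr3 by its brightest probe set. By the other it read 1668, 1626, 1255 and 1147. Wildtype and truncated Egr3 differed by less than 2 technical SDs in both, at 0.17 and 0.13. RNA275 was 1.22 times and 1.30 times the wildtype value, and the step between these neighbours exceeded 2 technical SDs by the second probe set only.

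Hspb2 and Hspb3, the partners in 1 complex, were ordered differently across the RNAs. Hspb2 read 906 in RNA276, 963 in RNA275, 841 in wildtype and 808 in truncated Egr3, and no neighbours in that order were separated. Hspb3 read 252 in RNA276, 219 in RNA275, 334 in wildtype and 329 in truncated Egr3. The wildtype and truncated Egr3 values differed by 0.02 in log2, and RNA276 lay below them by more than 2 technical SDs. Against wildtype this was only just so, at -0.4078 with a technical SD of 0.2037 for that pair.

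Hspb7, which binds filamin C, was the member whose probe sets disagreed. The brightest read 462 in RNA276, 281 in RNA275, 303 in wildtype and 355 in truncated Egr3. The dimmest read 140, 78.3, 102 and 93.4, again with RNA276 highest and RNA275 lowest. The other read 200 in RNA276, 182 in RNA275, 305 in wildtype and 408 in truncated Egr3. By that probe set the unassigned RNAs were both lower than the wildtype and truncated Egr3 RNAs, and the highest RNA was 2.25 times the lowest. Which of these patterns holds for Hspb7 was not tested, since the position of the probe sets on the transcript was not analysed here.

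**Figure D2:**
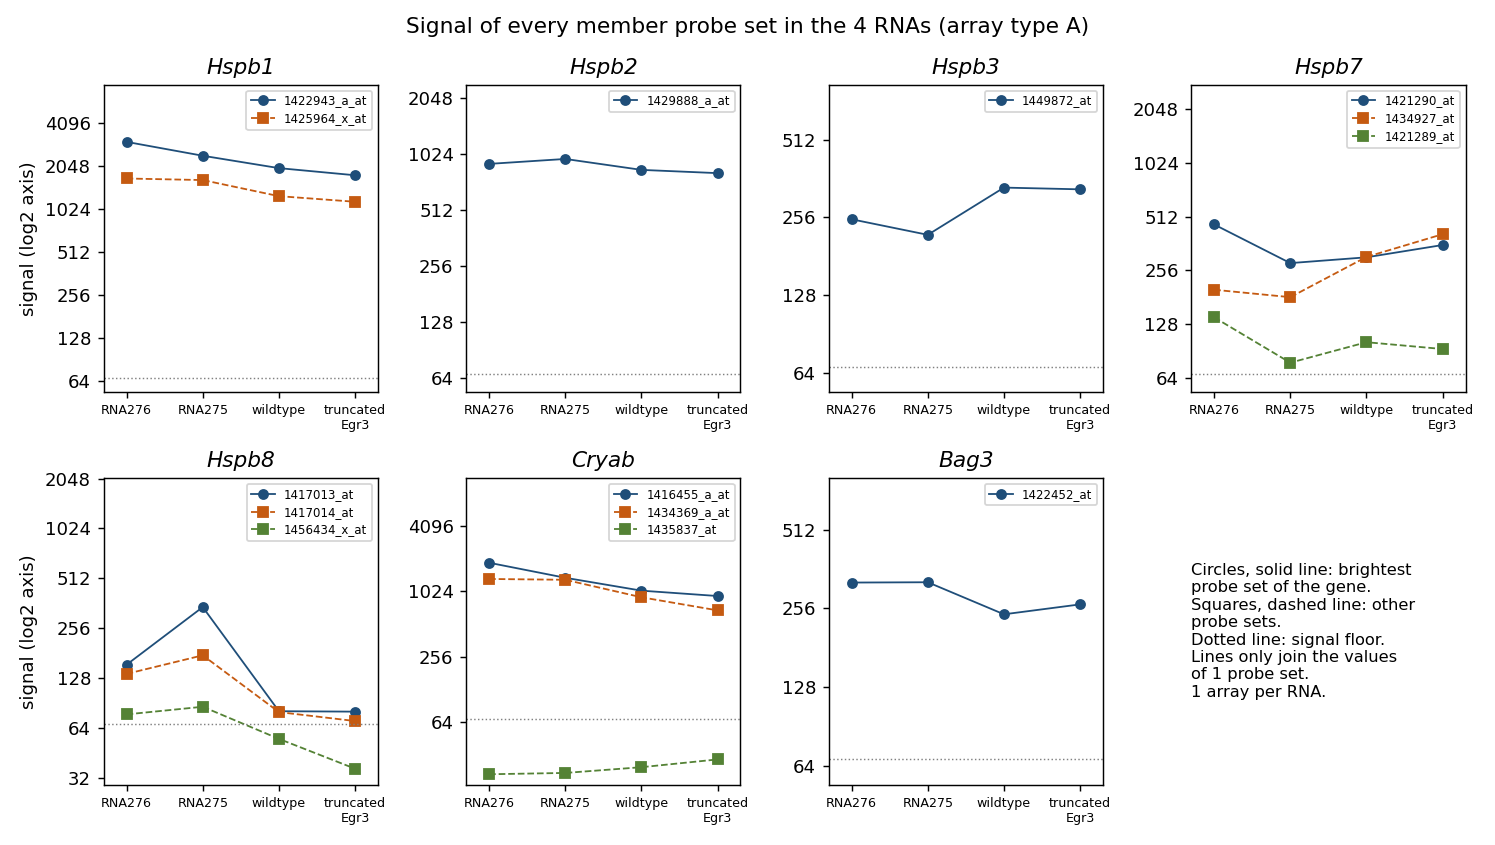
Deposited signal (log2 axis) of every member probe set in the 4 RNAs, 1 array per RNA; the solid line joins the brightest probe set of a gene, dashed lines the others, and the dotted line is the floor of 67.6. Hspb8 peaks in RNA275 (343 by its brightest probe set), Cryab and Hspb1 are highest in RNA276, Hspb3 is lower in RNA275 and RNA276, and the Hspb7 probe sets cross.

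Hspb8 had the widest range of the members over the 4 RNAs, 4.28-fold by its brightest probe set. That probe set read 154 in RNA276, 343 in RNA275, 80.7 in wildtype and 80.2 in truncated Egr3. The wildtype and truncated Egr3 values were near the floor and alike, RNA276 was 1.91 times the wildtype value, and RNA275 was 4.25 times it. The next probe set read 136, 175, 79.7 and 70.4, so the same order held with a smaller step of 2.20-fold from wildtype to RNA275. The dimmest read 77.2, 85.9, 54.9 and 36.3, with wildtype and truncated Egr3 below the floor, and RNA275 was at least 1.27-fold above them. Only the brightest probe set put RNA275 at least 2-fold above each of the other 3 RNAs; in all, 1.17% of 11153 genes above the floor in an RNA did so.

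Bag3, the partner of Hspb8, did not share that peak. It read 321 in RNA276, 322 in RNA275, 243 in wildtype and 265 in truncated Egr3, and no neighbours in this order were separated by 2 technical SDs. Bag3 and Hspb7 were the members with a lower signal in wildtype than in truncated Egr3 by their brightest probe sets, at -0.13 and -0.23.

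In 5 of the 7 members (Hspb1, Hspb2, Hspb8, Cryab and Bag3) RNA275 and RNA276 each read above both other RNAs, and in Hspb3 each read below both. Of all genes above the floor in an RNA, 20.2% had the first order and 19.4% the second. For Hspb2 the order was lost with quantile normalization of the arrays, where 4 members kept it. For Cryab it was lost with the probe set of fewest marks (letters in the probe set name), which is below the floor in all 4 RNAs. There too 4 members kept it. The size differed among members. By the brightest probe sets RNA276 was set against the higher of wildtype and truncated Egr3. It was 1.91 times that value for Hspb8, 1.81 times for Cryab, 1.53 times for Hspb1, 1.21 times for Bag3 and 1.08 times for Hspb2. The next probe sets gave 1.70 for Hspb8, 1.47 for Cryab and 1.33 for Hspb1. The labels give no group for these 2 RNAs, so what sets them apart from the others was not tested.

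Other genes listed with the small heat shock proteins gave few values on the arrays. Hspb6, a muscle member of the family, was measured on type B and read 769 in RNA276, 642 in RNA275, 628 in wildtype and 683 in truncated Egr3, a log2 difference of -0.12 that turned to 0.01 with quantile normalization. Hspb11, listed by its symbol, read 190 in truncated Egr3 against 122 in wildtype, at -0.63, and its other probe set was below the floor. Whether its protein has the domain of the family was not checked here. Hspb9, Cryaa and Odf1, genes of testis and lens, were below the floor in both.

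Across the chaperone system no measured gene of the 8 lists was 2-fold apart between wildtype and truncated Egr3 as deposited; with equal array medians 1 endoplasmic reticulum chaperone was. Of 21 measured cytosolic and mitochondrial heat shock chaperones, 13 differences were above 0 and the median was 0.15. The largest were those of Hspa1b, a heat-inducible Hsp70, at 0.88 (424 against 230), and Hspa4l, an Hsp110 relative, at 0.69. Hspa1a and Hspa1b are near-identical genes, so their probe sets may share signal; the other Hspa1b probe sets gave 0.62 and 0.49. Hspa8, the constitutive Hsp70 to which Bag3 binds, was at -0.04 by its brightest probe set and at 0.61 and 0.37 by others. Of the 8 TRiC chaperonin subunits 7 were above 0, with a median of 0.17; Cct3 was at 0.78 and Cct6a at 0.33, while another bright Cct3 probe set was at -0.42 and the other Cct6a probe set at -0.02.

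The list of other BAG family genes and genes of the autophagy that Bag3 directs held 14, with 3 differences above 0, 11 below and a median of -0.07. Synpo2, which ties Bag3 to the autophagy membrane machinery, was at -0.54 and, by a brighter type B probe set, at -0.23. Gabarapl1, an autophagosome protein, was at -0.40. All 13 endoplasmic reticulum chaperones were below 0, with a median of -0.25, and Dnajb9 came closest to 2-fold at -0.99, followed by Pdia4 at -0.84, a bound with wildtype at the floor. The heat shock factor list had 2 measured genes, Hspbp1 at 0.50 and Hsbp1 at 0.21, with the other Hsbp1 probe set at -0.24; Hsf2 and Hsf4 were below the floor and Hsf1 was not analysed here. The 3 myosin chaperones had a median of -0.04, which turned to 0.12 with quantile normalization and 0.13 with loess, with Unc45a at 0.13 and Smyd1 at -0.10. Other measured Smyd1 probe sets ran from -0.58 to 0.06, and a brighter type B Unc45a probe set was at 0.04.

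**Figure D3:**
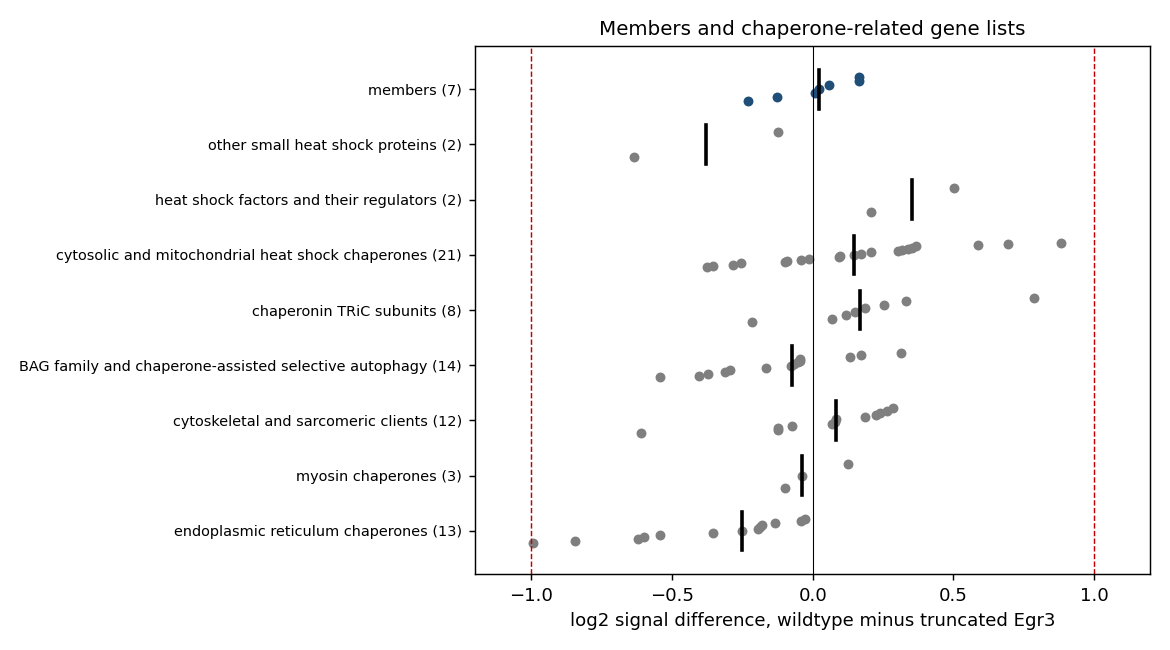
Log2 signal difference, wildtype minus truncated Egr3, for the 7 members and for each measured gene of 8 chaperone-related lists (number of genes in brackets; black bars are medians, dashed lines 2-fold). All points lie inside 2-fold; the members' median is 0.02 and that of the endoplasmic reticulum chaperones -0.25.

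Client proteins of the members differed among themselves. Of 12 cytoskeletal and sarcomeric clients, 8 were above 0 between wildtype and truncated Egr3 (median 0.08), with Myot, a Z-disc protein, at -0.61 and Acta1, skeletal actin, at 0.29. Des, the desmin gene whose protein Cryab protects, read 2353 in RNA276, 2020 in RNA275, 1523 in wildtype and 1659 in truncated Egr3. It was the 1 client in which RNA275 and RNA276 each read above both other RNAs, as in Cryab. In 5 clients (Flnc, Actn2, Ttn, Myot and Ldb3) each read below both. The largest of these was Ttn, the titin gene, at 354 in RNA276, 704 in RNA275, 1850 in wildtype and 1627 in truncated Egr3. Among the 21 heat shock chaperones, RNA275 and RNA276 each read above both others in 9, and below both in 1, St13. Of all genes above the floor in an RNA, 20.2% had the first order and 19.4% the second.

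Markers of other cell types were partly present. Of 7 macrophage markers 2 were above the floor, and the summed signal of all 7, most of them below it, ran from 355 to 399 over the RNAs. Of 4 endothelial markers 1 was measured, and of the 2 Schwann cell markers on the arrays 1. The 6 fibroblast markers had a summed signal from 6943 in RNA275 to 8382 in RNA276. Of the 4 measured, 2 differences were above 0 and 2 below, with a median of 0.06 (-0.08 with quantile normalization). Only Dcn, a matrix proteoglycan, reached 2-fold, at 2.02-fold higher in truncated Egr3, a call lost with loess. Cnn1 and Myh11, defining smooth muscle genes, were below the floor in wildtype and truncated Egr3, while the 3 measured smooth muscle markers had a median difference of 0.59, led by Tagln at 0.83. The summed signal of all 5 smooth muscle markers ran from 4451 in truncated Egr3 to 6147 in wildtype. The part of these markers in the members' differences was not tested.

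The genes closest to Hspb8 in pattern were found by centring each gene's log2 signal over the 4 RNAs and taking the root mean square distance, among 8415 other genes above the floor in all 4. The nearest was Ddr1, a collagen receptor kinase, at a distance of 0.06: it read 303 in RNA276, 620 in RNA275, 159 in wildtype and 145 in truncated Egr3. That probe set is marked for possible cross-hybridisation, and another bright Ddr1 probe set read 212, 323, 166 and 155, with the same order and a smaller peak. A further probe set read 131, 148, 159 and 141, without the peak. Dimmer ones above the floor in all 4 RNAs read 75.1, 102, 95.2 and 73.2, with RNA275 highest, and 125, 101, 122 and 158, with RNA275 lowest. Mroh2a, Lonrf3, Cyp26b1 and Tmsb15a followed at 0.22, 0.25, 0.25 and 0.27, all measured on type B. The other Lonrf3 probe set read 164, 451, 321 and 318, with RNA275 highest but RNA276 lowest. The other members were farther from Hspb8: Cryab at 0.70, Bag3 and Hspb1 at 0.72, Hspb2 at 0.77, Hspb7 at 0.96 and Hspb3 at 1.11. Likeness over 4 RNAs is a description of these RNAs.

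**Figure D4:**
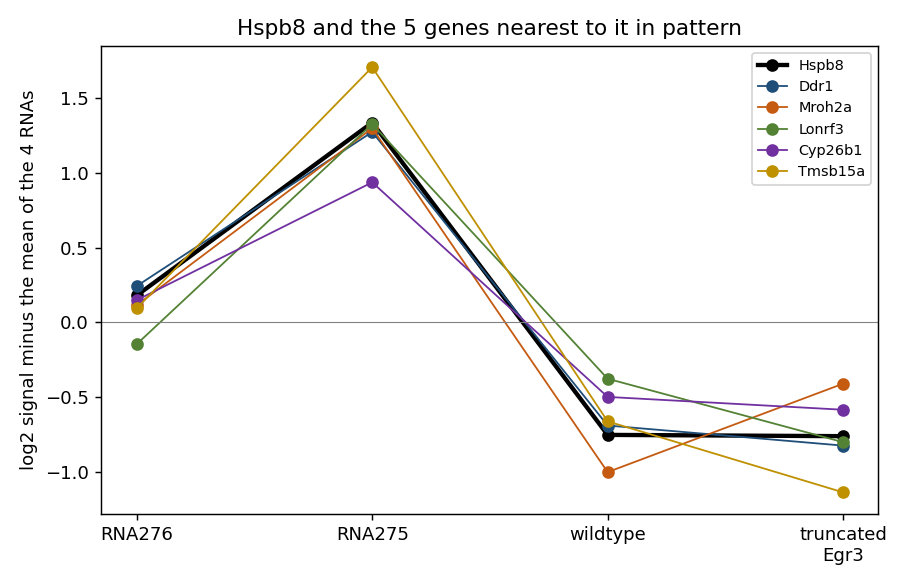
Log2 signal minus the mean over the 4 RNAs, for Hspb8 and the 5 genes nearest to it in pattern, 1 probe set per gene. All 6 peak in RNA275, and Ddr1 lies closest to Hspb8, at a root mean square distance of 0.06.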

How the data were processed

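Total RNA of 4 myotube preparations was measured on 2 array types, 8 arrays in all. Each probe set has 1 deposited intensity per array, unlogged; which software made it is not given in the sources used here. Their means after trimming 2% at each end were 150.0 on all 8 arrays, so a common scale had been set by the authors and was kept. Gene symbols came from the platform annotation, updated by gene number to RefSeq names; 20380 probe sets on type A and 14661 on type B had 1 symbol, and the rest stayed unnamed. The probe set with the highest mean over the 4 RNAs stood for a gene, from type A where it had any. Signals were floored at 67.6 on type A and 112.4 on type B (the 50th and 60th percentiles of the pooled signals of wildtype and truncated Egr3), then turned to log2. A gene was measured when either of these RNAs was above the floor, and called at 2-fold. A difference with 1 RNA at the floor is a bound.

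The technical SD of a log2 difference was the SD between array types of the same probe sets, divided by the square root of 2. It leaves out the mean offset between array types (type A minus type B). That offset ran from -0.267 for RNA276 minus wildtype to 0.139 for wildtype minus truncated Egr3. For RNA275 minus wildtype it was -0.217, so separations from wildtype may be less firm than the SD alone implies. The technical SD was 0.150 to 0.204 over the 6 pairs of RNAs. Neighbours in an order were called separated at 2 such SDs, on the deposited scale.

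The members and lists were chosen with earlier results of these data known. Genes named were all members, the 2 largest differences of each list (or all at 2-fold), and the 5 nearest genes in pattern to the member with the widest range; client genes, other probe sets and St13 were added after their values were seen. Alternatives were quantile normalization, equal medians, loess (span 0.3), other floors, folds of 1.5 and 3, and the median over probe sets. Another was the probe set with fewest marks, a mark being a letter a, f, s or x in its name. The procedure was tested on simulated data. A search of the start regions for other letters is not reported here. Python 3.11.15, numpy 2.4.6, pandas 2.3.3 and statsmodels 0.14.6 were used.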

Additional observations from a re-analysis of the deposited data

Results flagged for a closer look

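RNA275, which enters no comparison of labelled RNAs, read at least 2-fold above both the wildtype and the truncated Egr3 RNA for Hspb8 by 2 probe sets, at 343 and 175. The wildtype values of these probe sets were 80.7 and 79.7. With 1 array per RNA and no stated condition beyond acclimatization, the difference was not tested.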

How the results depend on the processing

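No member was 2-fold apart under any alternative run, including a threshold of 1.5-fold. All 54 alternative values of single members lay within 1 technical SD of the value reported, and 5 had the other sign: Hspb2 and Hspb3 with equal medians (-0.00 and -0.04), and Hspb8 with quantile normalization, equal medians and loess (-0.03, -0.05 and -0.01). Many of the 54 could not move and only repeat the reported value. A changed floor leaves a difference between signals above it as it was. The probe set of fewest marks was the brightest in every member that had a value by it. The members' median ran from -0.04 with equal medians to 0.06 with the median over probe sets. Hspb8 has no value with the higher floor, and Cryab none with the probe set of fewest marks, since they fall below the floor. Counts over all genes moved more: 116 higher and 55 lower became 93 and 87 with equal medians, 185 and 84 with the lower floor, 77 and 39 with the higher floor, 1206 and 603 with no floor, 473 and 484 at 1.5-fold, and 38 and 8 at 3-fold. The share of measured genes above 0 was 49.9% as deposited and 39.1% with equal medians. Alternatives for RNA275 and RNA276 were chosen after seeing the data. Hspb8 in RNA275 lay 2.09 in log2 above the higher labelled RNA, and 1.76 with the higher floor; Cryab in RNA276 lay 0.85 above it, and between 0.70 with quantile normalization and 1.07 with equal medians. With equal medians 28.1% of genes had RNA275 and RNA276 each above both others, and 12.0% each below. The number of arrays limits the precision, and folds against values near the floor, as for Hspb8, depend on the floor and the probe set.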

Other observations

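Hspa4l, an Hsp110-type nucleotide exchange factor for Hsp70, had 1 order of RNAs in all 5 of its probe sets, on both array types, and it was not that of Cryab or Hspb1. The brightest type A probe set read 267 in wildtype, 220 in RNA275, 165 in truncated Egr3 and 154 in RNA276. A type B probe set read 590, 559, 346 and 86.2 in the same order. The log2 differences between wildtype and truncated Egr3 were 0.56 to 0.77 over the 5 probe sets, above 2 technical SDs in each. Dnajb4, an Hsp40 co-chaperone, was also lowest in RNA276, at 98.4 against 250 in RNA275, 241 in wildtype and 226 in truncated Egr3, while Dnajb1, of the same family, was highest there, at 484 against 252, 215 and 280. These genes were singled out after their values were seen.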
